A study of Mus musculus with 15 samples.

Results

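Small nucleolar RNA (snoRNA) genes were examined in gonadal white adipose tissue of mice lacking Sfrp5. Members were the probe sets of the array that carry exactly 1 annotated symbol made of Snora or Snord and a number, with the brightest probe set over all 15 arrays kept for each gene. The rule found 51 genes, 20 of the box H/ACA class (Snora) and 31 of the box C/D class (Snord), among 19938 genes measured by a probe set with a single symbol. A further 41 probe sets list such a name beside other symbols and were not analysed here. Of the 51 genes, 5 had more than 1 probe set. Both probe sets of Snora30 held identical values on every array, as did both of Snord118.

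The study set 8 Sfrp5 KO mice, carrying the Q27Stop allele, which puts a premature stop codon into Sfrp5, against 7 wild type mice. All were C57BL6/J males, 12 weeks old and fed a high-fat diet through their last 8 weeks (begun at an age of 4 weeks), so no group went without that diet. Sfrp5 is a secreted protein that binds Wnt ligands. Each mouse gave 1 sample of total RNA and 1 Affymetrix array, so precision was set by the number of mice. Values are log2 signals.

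snoRNAs are short RNAs that stay in the nucleolus and work inside protein complexes. Box C/D snoRNAs pair with ribosomal RNA and direct fibrillarin to methylate its ribose, and box H/ACA snoRNAs direct dyskerin to turn uridine into pseudouridine. A few, such as U8 (Snord118), U14, U17 (Snora73a and Snora73b) and U22 (Snord22), act in cleavage of the ribosomal RNA precursor. In mammals most lie in introns of host genes and are released when the intron is spliced out and trimmed. A probe set inside an intron therefore reads the mature snoRNA and the unspliced host transcript alike, and the arrays cannot tell them apart.

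Sequences of the snoRNAs themselves were not used here. One listed small RNA, mmu-miR-5121, lies with all 21 of its bases inside the span of Snord33 (chromosome 7, 45126925 to 45126945, minus strand, GRCm38.p6), and it carries the core of box C, the element after which the class is named. It is shown because Snord33 is among the members with the lowest p on the lower side. RefSeq gives it as follows, with the box C core in capitals.
mmu-miR-5121: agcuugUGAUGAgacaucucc

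The starts of 3 host genes are shown because their snoRNAs carry the results below: Rack1 holds Snord95 and Snord96a, Wdr43 holds Snord53, and Rpl13a holds Snord33 and Snord35a. Each run covers 50 bases before to 50 bases after the RefSeq gene start in GRCm38.p6, at chr11:48800310-48800409 (plus strand), chr17:71616165-71616264 (plus strand) and chr7:45128696-45128795 (minus strand). Capitals mark the longest unbroken run of C and T, of at least 8 bases, within 25 bases of the start. Such a run at the start is the hallmark of ribosomal protein genes and of many snoRNA hosts.
Rack1: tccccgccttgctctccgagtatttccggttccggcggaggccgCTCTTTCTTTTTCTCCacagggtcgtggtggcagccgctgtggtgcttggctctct
Wdr43: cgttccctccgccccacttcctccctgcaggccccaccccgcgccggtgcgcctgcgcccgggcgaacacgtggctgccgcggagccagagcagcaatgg
Rpl13a: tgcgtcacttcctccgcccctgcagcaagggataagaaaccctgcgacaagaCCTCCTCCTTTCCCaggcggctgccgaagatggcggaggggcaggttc

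Within 25 bases of the start the run was 16 bases long in Rack1 and 14 in Rpl13a. The longest in Wdr43 was 4 bases there, below the minimum, and a longer run farther upstream lies almost wholly outside that window. Runs of at least 8 C or T in that window were counted on the gene's own strand. Such a run was present in 12 of the 30 host genes with a promoter sequence (40%), against 22.3% of 27025 genes. Among the 11 ribosomal protein hosts with a sequence it was present in 6 (54.5%). The motif CACGTG, which reads alike on both strands, was looked for in a longer window, 250 bases before to 50 after the start, and was present in 6 of the 30 hosts (20%) and in 8.09% of all genes. A gene with several starts counted if any of them held the motif. These matches describe letters in the windows and were not tested.

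Sfrp5 itself averaged 6.69 ± 0.40 in Sfrp5 KO mice and 7.92 ± 0.24 in wild type mice (SD, n = 8 and 7), a log2 difference of -1.23 (limma adjusted p = 0.0200). That call was lost in 10 of 26 alternatives, 7 of them single arrays left out, with limma adjusted p-values up to 0.316 and a difference between -1.33 and -0.93. The mean of 9 adipocyte markers lay between 11.78 and 12.02 in Sfrp5 KO arrays and between 11.69 and 12.00 in wild type arrays. The 11.78 came from Sfrp5 KO replicate 2. The mean of 8 epididymis markers reached 10.58 in Sfrp5 KO replicate 2 and 7.04 in wild type replicate 4, the highest array of each genotype, beside a lowest value of 5.70 in Sfrp5 KO and 5.79 in wild type arrays. All 10 mesothelial markers were higher in Sfrp5 KO mice by the group means, 4 of them at an unadjusted limma p under 0.05 (against 4.94% of all probe sets higher at that p) and none called, with a list mean of 8.03 to 8.83 against 7.40 to 8.75 in wild type mice. The means of 10 macrophage markers ran from 8.31 to 9.58 in Sfrp5 KO mice and from 8.59 to 9.13 in wild type mice. All 6 endothelial markers were lower in Sfrp5 KO mice by the group means, with a median log2 difference of -0.11. None was called or had an unadjusted limma p under 0.05 (against 5.03% of all probe sets lower at that p). Their list mean was 8.93 to 9.34 against 8.89 to 9.50 in wild type mice. The T cell, B cell and skeletal muscle lists held both signs. The part of these cells in the snoRNA results was not tested.

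The snoRNA genes spanned most of the array's signal range. Their mean log2 signals over 15 mice ran from 3.51 to 11.05 with a median of 6.87, beside a median of 7.02 over all 35557 probe sets. Probes differ in affinity, so the order of levels describes these probe sets and not the amounts of RNA. Snord104 had the highest mean, 11.05, and was the only member above the 90th percentile of all probe sets. It was followed in the C/D class by Snord14e (9.50), a U14 gene inside the heat shock gene Hspa8, and Snord47 (8.68), inside the non-coding RNA Gas5. The dimmest C/D genes were Snord58b (3.51), Snord37 (4.20) and Snord118 (4.84).

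Box H/ACA genes were compressed into a narrower band, between 4.85 and 9.30 with a median of 7.31, against 3.51 to 11.05 and a median of 6.55 for box C/D genes. The brightest were Snora3 (9.30, inside Rpl27a), Snora30 (8.95, inside Srcap) and Snora23 (8.86, inside Ipo7), and the dimmest were Snora16a (4.85), Snora2b (4.87) and Snora21 (6.12). Of the 16 members below the 33rd percentile of all probe sets, 3 were H/ACA and 13 were C/D genes. The mean of the H/ACA genes exceeded that of the C/D genes on every array, by 0.43 to 0.66 in Sfrp5 KO mice and by 0.37 to 0.80 in wild type mice. These ranges overlap over most of their length.

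**Figure D1:**
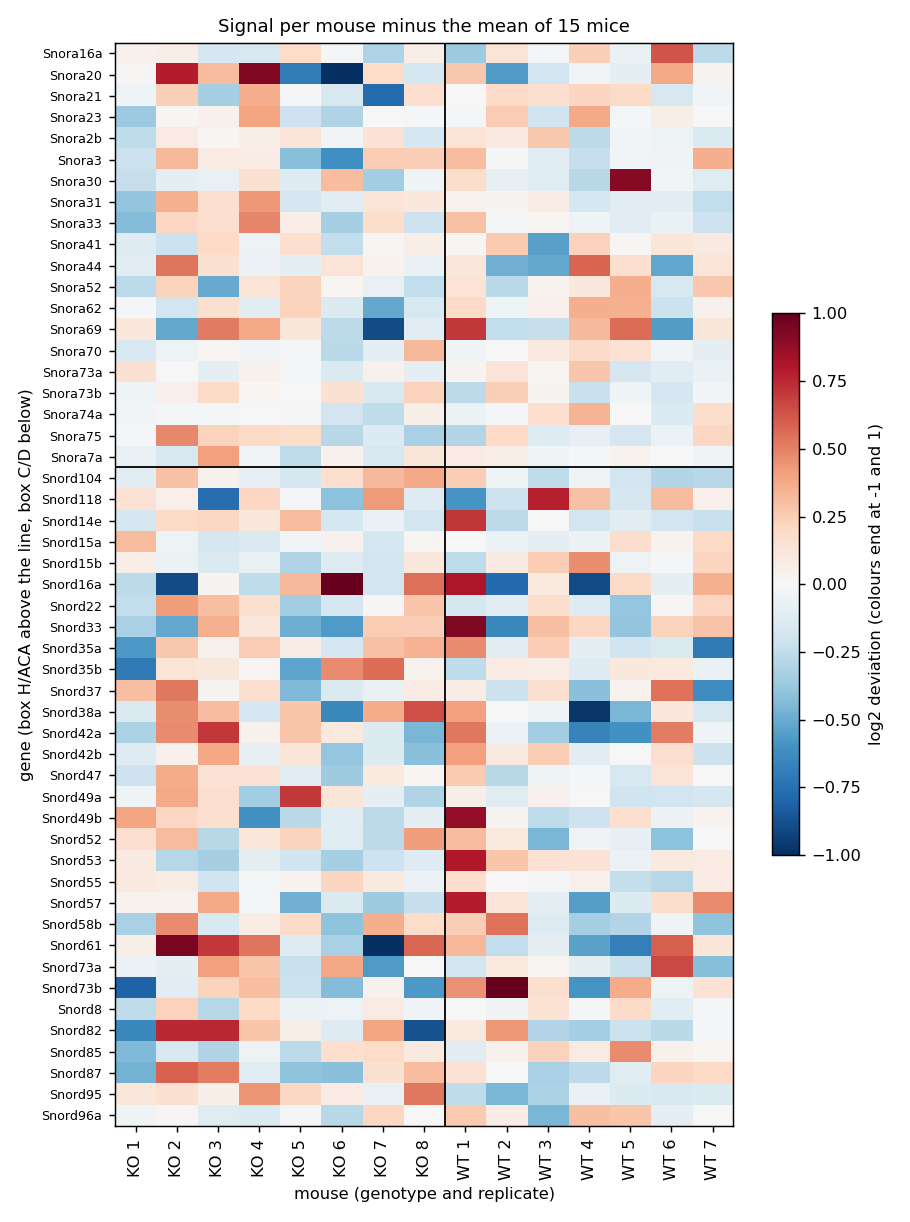
Each row is 1 of the 51 snoRNA genes and each column 1 mouse, Sfrp5 KO left of wild type, and colour gives the log2 signal minus the gene's mean over 15 mice. No row splits cleanly at the boundary between genotypes, while in Sfrp5 KO replicate 1 13 of 51 genes and in wild type replicate 1 36 of 51 genes lie above their own median.

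No snoRNA gene passed the threshold between the genotypes. Of the 51 genes, 0 had a limma adjusted p under 0.05, against 0.0337% of all probe sets (12 of 35557). At an unadjusted p under 0.05 there were 3 members (5.88%), against 9.97% of all probe sets: 2 were higher in Sfrp5 KO mice, against 4.94%, and 1 was lower, against 5.03%. No member had groups with separate ranges, against 0.217% of probe sets. By the sign of the difference alone 25 genes were higher and 26 lower in Sfrp5 KO mice, and the share higher, 49.0%, lay beside 47.5% of all probe sets. The median log2 difference was -0.01 for the members and -0.01 for all probe sets. In whole tissue, fewer cells of a type and less RNA per cell cannot be told apart.

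The median size of the difference, in either direction, was 0.12 for members, against 0.08 for all probe sets and 0.06 for genes with a single symbol. The members ran from -0.42 to 0.41, and 8 of 51 (15.7%) differed by more than 0.2 in either direction, against 15.1% of all probe sets and 7.01% of genes with a single symbol. Because intervals were wide for the variable genes, a missed threshold does not show equal levels. For Snora73a, one of the least variable members, the difference was -0.03 with a 95% interval of -0.17 to 0.12. For Snord61, the most variable, the interval ran from -0.60 to 0.87.

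**Figure D2:**
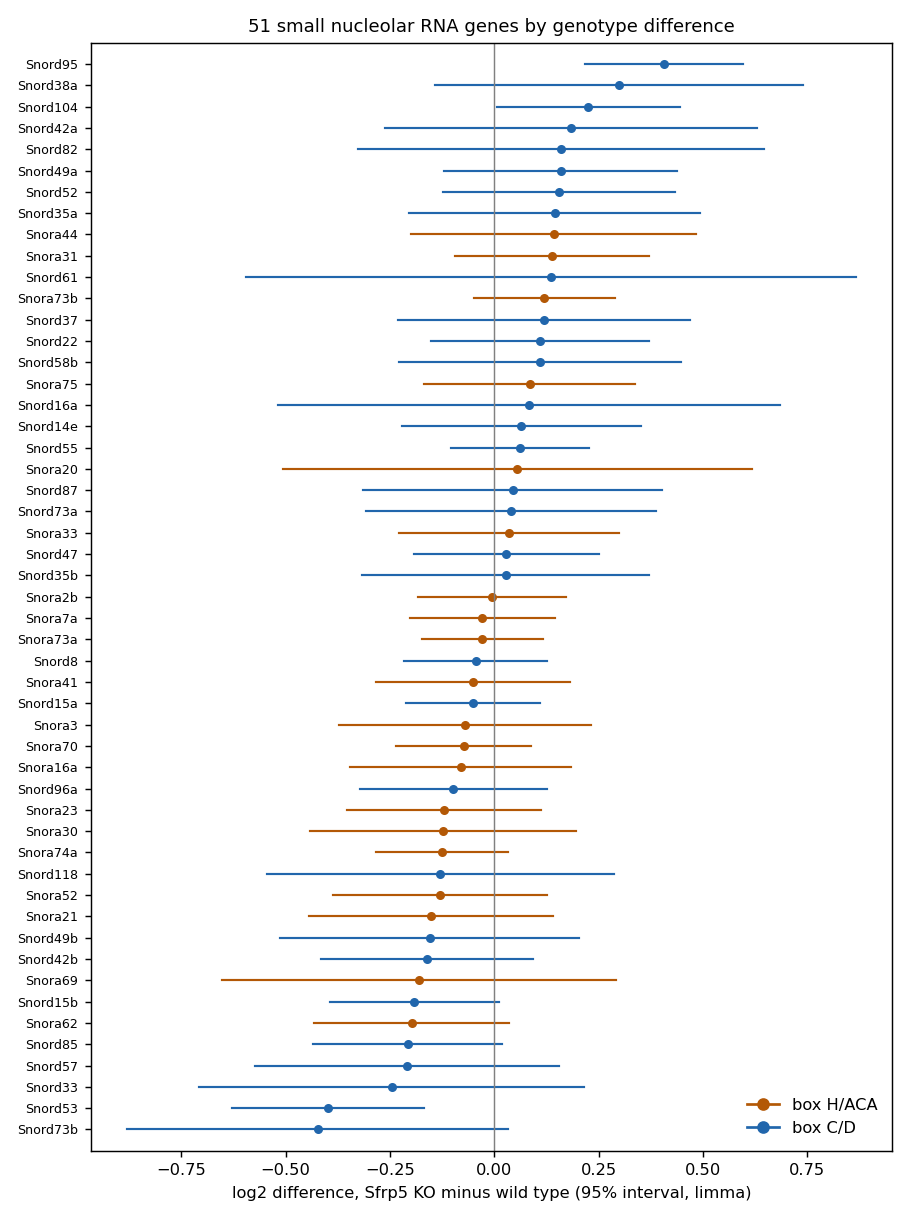
Points are log2 differences, Sfrp5 KO minus wild type, for each of the 51 snoRNA genes in order of size, with 95% intervals from limma, and colour gives the class. Snord95 at 0.41, Snord104 at 0.23 and Snord53 at -0.40 are the members whose intervals exclude 0 before adjustment.

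Snord95, a C/D gene on chromosome 11 in an intron of Rack1, had the lowest p of the members. Rack1 encodes a scaffold protein of the small ribosomal subunit. The Snord95 signal in Sfrp5 KO mice was 7.21 at the lowest, 7.42 at the median and 7.81 at the highest, against 6.83, 7.14 and 7.22 in wild type mice. All 8 Sfrp5 KO mice lay above the wild type mean, and the ranges met only where Sfrp5 KO replicate 7 (7.21) lay just under wild type replicate 4 (7.22). The log2 difference was 0.41 (SE 0.09), 1.33-fold, with a limma adjusted p = 0.111. Permuting the genotypes over each of the 6435 possible splits gave an exact two-sided p = 0.000466, unadjusted for the choice of this gene, where the smallest possible is 0.000155. Over 26 alternative settings the difference stayed between 0.36 and 0.44 and the limma adjusted p between 0.0718 and 0.441.

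The second snoRNA of Rack1, Snord96a, did not share this pattern. Its signal was 5.96, 6.21 and 6.44 at the lowest, median and highest in Sfrp5 KO mice, against 5.78, 6.31 and 6.53 in wild type mice. The wild type range enclosed the Sfrp5 KO range, and the log2 difference was -0.10 (SE 0.11, limma adjusted p = 0.833), with a 95% interval of -0.32 to 0.13. Across the 15 mice Snord95 and Snord96a had an r of -0.14, which includes their genotype differences. With the genotype means removed it was 0.09, and it was -0.20 within Sfrp5 KO and 0.37 within wild type mice. Rack1 itself was not analysed here, since no probe set carries it as its only symbol.

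Snord53 had the lowest p on the lower side. It is a C/D gene on chromosome 17 inside Wdr43, whose product is a part of the small-subunit processome, the complex that assembles around U3. Snord53 reached 6.79, 6.92 and 7.22 at the lowest, median and highest in Sfrp5 KO mice, against 7.06, 7.27 and 7.93 in wild type mice. None of the 8 Sfrp5 KO mice lay above the wild type mean, and 1 of them, replicate 1 at 7.22, reached into the wild type range. The log2 difference was -0.40 (SE 0.11, limma adjusted p = 0.190). The exact two-sided permutation test gave p = 0.000932, again unadjusted. Wild type replicate 1, at 7.93, stood far above the other 6 wild type mice, and without it the difference was -0.30 (limma adjusted p = 0.1995). Wdr43 differed by -0.05.

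Snord104, the brightest member, lies inside the long non-coding RNA gene Gm36220 on chromosome 11. Its signal was 10.88, 11.16 and 11.43 at the lowest, median and highest in Sfrp5 KO mice, against 10.75, 10.86 and 11.30 in wild type mice. Most of both ranges overlapped, although 7 of 8 Sfrp5 KO mice lay above the wild type mean. The log2 difference was 0.23 (SE 0.10), with a limma unadjusted p = 0.0452 and a limma adjusted p = 0.488. It was 0.14 without Sfrp5 KO replicates 7 and 8, and 0.47 with these as the only KO arrays (limma adjusted p = 0.766 and 0.399).

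Snord73b, one of a pair of C/D genes inside the ribosomal protein gene Rps3a1 on chromosome 3, had the most negative difference of all members. Its signal was 5.71, 6.36 and 6.82 at the lowest, median and highest in Sfrp5 KO mice, against 5.93, 6.69 and 7.60 in wild type mice. The ranges overlapped, with 1 of 8 Sfrp5 KO mice above the wild type mean. The log2 difference was -0.42 (SE 0.21, limma adjusted p = 0.550), and -0.28 without wild type replicate 2, the highest mouse. The other snoRNA of this host, Snord73a, differed by 0.04 (SE 0.16), and the host Rps3a1 by 0.28 (SE 0.07, limma adjusted p = 0.146). Without Sfrp5 KO replicate 1 the difference of Rps3a1 was 0.32 (limma adjusted p = 0.0444), which is past the threshold. That was the only 1 of 26 alternatives to pass, and the limma adjusted p of Rps3a1 reached 0.447 among them.

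**Figure D3:**
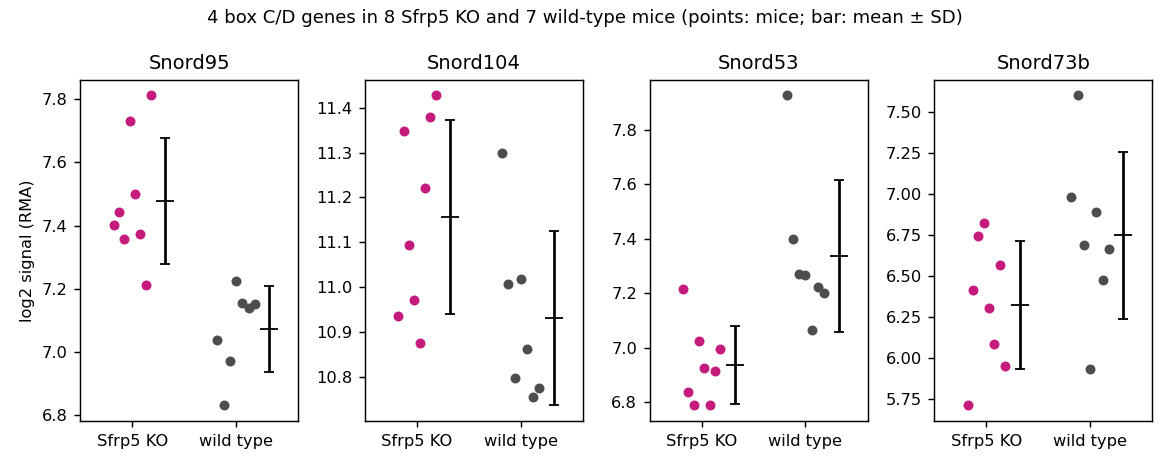
Log2 signals of Snord95, Snord104, Snord53 and Snord73b, 1 point per mouse, Sfrp5 KO left of wild type, with bars for mean ± SD (n = 8 and 7). Snord95 and Snord53 overlap between genotypes by 1 Sfrp5 KO mouse each, and the axes do not start at 0.

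The other members with the lowest p-values had differences of 0.11 to 0.30 on the higher side and -0.25 to -0.12 on the lower side, all with overlapping ranges. On the higher side these were Snora73b (0.12), Snord38a (0.30), Snora31 (0.14), Snord49a (0.16), Snord52 (0.15), Snord22 (0.11), Snora44 (0.14) and Snord35a (0.14). On the lower side they were Snord15b (-0.19), Snord85 (-0.21), Snora62 (-0.20), Snora74a (-0.12), Snord42b (-0.16), Snord57 (-0.21), Snord33 (-0.25) and Snora23 (-0.12). In Snora74a none of the 8 Sfrp5 KO values, 6.46 to 6.78, lay above the wild type mean of 6.79. The medians were nearly equal, 6.70 in Sfrp5 KO and 6.72 in wild type mice. Its wild type range was 6.58 to 7.06, and its limma adjusted p was 0.633.

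Snord57 lies inside Nop56, a gene for a core protein of the C/D complexes, so a C/D guide and a protein that binds it come from 1 transcript. Snord57 reached 5.999, 6.40 and 6.86 at the lowest, median and highest in Sfrp5 KO mice, against 5.93, 6.61 and 7.27 in wild type mice. The wild type range enclosed the Sfrp5 KO range. Nop56 differed by -0.06 (SE 0.08, limma adjusted p = 0.865).

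The members named above for cleavage of the ribosomal RNA precursor differed in both directions, between -0.13 and 0.12. U3, measured as Rnu3a and no member by its symbol, differed by -0.38 and is described below. The U17 genes Snora73a and Snora73b, side by side in the non-coding RNA Snhg3 on chromosome 4, differed by -0.03 and 0.12. Snora73b was 7.45 to 7.84 in Sfrp5 KO mice and 7.35 to 7.85 in wild type mice, ranges that overlap almost wholly. The U14 gene Snord14e differed by 0.06 and the U8 gene Snord118 by -0.13, with limma adjusted p-values of 0.921 and 0.887. Snord118 is the only member that no other RefSeq gene span holds. Snord22, the U22 gene in Snhg1 and the only member on chromosome 19, where Sfrp5 also lies, was 7.19, 7.62 and 7.95 at the lowest, median and highest in Sfrp5 KO mice, against 7.15, 7.43 and 7.74 in wild type mice. These ranges overlapped over most of their length (log2 difference 0.11, SE 0.12, limma adjusted p = 0.840).

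Snord33 and Snord35a, in introns of Rpl13a, share that host with Snord32a and Snord34, which were not analysed here. The snoRNAs of Rpl13a are known from cultured cells as mediators of the toxic response to excess fatty acid. Snord33 was 5.18, 5.64 and 6.10 at the lowest, median and highest in Sfrp5 KO mice, against 5.10, 5.97 and 6.68 in wild type mice. Snord35a was 4.94, 5.68 and 5.86 in Sfrp5 KO mice, against 4.80, 5.40 and 5.98 in wild type mice. In both genes the wild type mice spanned the whole range of the Sfrp5 KO mice, and the log2 differences were -0.25 (SE 0.22) and 0.14 (SE 0.16), with limma adjusted p-values of 0.787 and 0.842. Single arrays moved both: Snord33 was -0.11 without wild type replicate 1 and -0.37 without wild type replicate 2. Snord35a was 0.04 without wild type replicate 7, and 0.24 without Sfrp5 KO replicate 1 or without wild type replicate 1. Snord35b differed by 0.03 (SE 0.16), and that sign changed under some alternatives. No snoRNA of the imprinted clusters (Snord64, Snord107, Snord113, Snord114, Snord115 and Snord116) met the rule on symbols.

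Split by class, 6 box H/ACA genes were higher and 14 lower in Sfrp5 KO mice, with differences from -0.20 to 0.14 and a median of -0.06. Of the 31 box C/D genes, 19 were higher and 12 lower, with differences from -0.42 to 0.41 and a median of 0.04. The share higher was 30% of H/ACA and 61.3% of C/D genes, beside 47.5% of all probe sets. At an unadjusted p under 0.05 there were 0 H/ACA genes and 3 C/D genes (9.68%), beside 9.97% of all probe sets. The medians stayed between -0.08 and -0.03 for H/ACA and between -0.01 and 0.08 for C/D genes over the alternatives. No test was made of the classes against each other, and both medians lie close to the -0.01 of all probe sets.

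Hosts gave a further way to divide the members. By RefSeq spans 21 lie inside ribosomal protein genes (13 C/D and 8 H/ACA), 16 inside other protein-coding genes and 13 inside long non-coding RNA genes, which makes 40 host genes. The median difference was -0.05 in ribosomal protein hosts, with 9 genes higher and 12 lower. It was 0.02 in other protein-coding hosts, with 8 higher and 8 lower, and 0.04 in long non-coding hosts, with 8 higher and 5 lower. Each of the 3 kinds of host thus held genes with both signs.

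Values of snoRNA genes differed widely between mice. The SD over 15 mice had a median of 0.27 among the members, with a range of 0.12 to 0.70, against 0.18 over all probe sets. It was 0.24 for H/ACA and 0.32 for C/D genes. Because SD depends on level, members were also set beside probe sets of like level. In the lowest of 5 equal bands of level the median SD was 0.269 for 7 members and 0.221 for all probe sets, in the next 0.331 for 16 members and 0.2001, and in the middle band 0.257 for 12 members and 0.181. In the upper bands it was 0.212 for 10 members against 0.174, and 0.256 for 6 members against 0.145. Of the 51 members 42 exceeded the median SD of all probe sets in their own band (28 of 31 C/D and 14 of 20 H/ACA genes), against 38.4% of the other 19887 genes with a single symbol.

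The most variable members were Snord61 (SD 0.70), inside the splicing regulator gene Rbmx on chromosome X, Snord16a (0.57, inside Rpl4), Snora20 (0.54, inside Tcp1), Snord73b (0.48) and Snord82 (0.47, inside Ncl, the nucleolin gene). The Snord61 signal was 4.27, 6.43 and 7.09 at the lowest, median and highest in Sfrp5 KO mice, against 5.46, 6.05 and 6.73 in wild type mice. The lowest value came from Sfrp5 KO replicate 7 alone, while the other 7 Sfrp5 KO mice began at 5.82. Snora20 was 5.39, 6.63 and 7.46 in Sfrp5 KO mice, against 5.97, 6.51 and 6.92 in wild type mice, so the wild type range lay inside that of the Sfrp5 KO mice. Shorter snoRNAs tended to vary more: across the 51 genes the annotated length, with a median of 68 bases for C/D and 125 bases for H/ACA genes, had an r of -0.50 with the SD. Within the classes that r was -0.63 for H/ACA and -0.28 for C/D genes. It is given as a description, since the genes share all 15 arrays and a shorter gene leaves room for fewer probes.

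**Figure D4:**
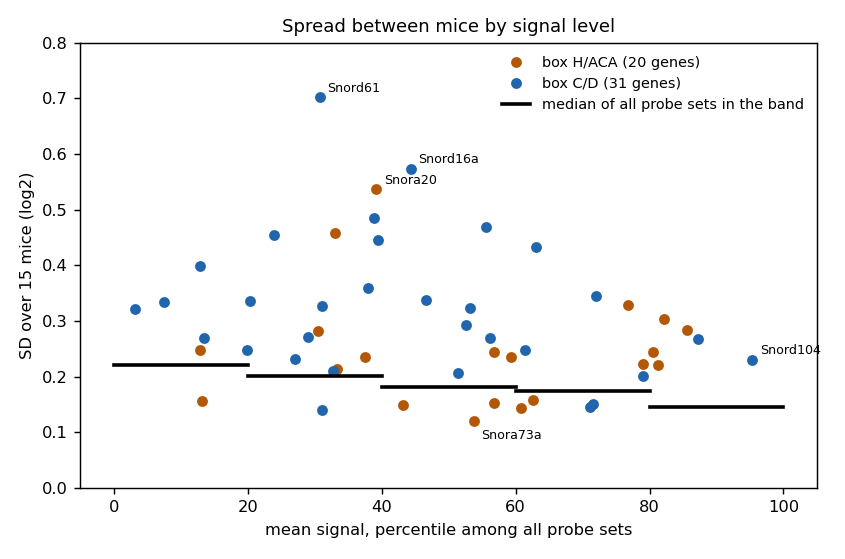
Each coloured point is 1 snoRNA gene, with the percentile of its mean signal among all probe sets on the x axis and its SD over 15 mice (log2) on the y axis, and the line gives the median SD of all probe sets in each band of level. Of the 51 genes 42 lie above the median SD of probe sets in their own band of level, with Snord61 at 0.70 at the top.

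Members did not move as a single block across mice. The median Pearson r over all 1275 pairs was 0.06, between -0.76 and 0.85, and 57.9% of pairs were positive. Among all pairs of genes with a single symbol the median was 0.01 and 51.6% were positive. Pairs above 0.5 made up 6.12% of member pairs and 6.66% of all gene pairs, and pairs below -0.5 made up 1.73% and 5.23%. Removing the genotype means left the median at 0.06, and it was 0.10 within the 8 Sfrp5 KO mice and 0.04 within the 7 wild type mice. Pairs of 2 H/ACA genes had a median of 0.08, pairs of 2 C/D genes 0.06, and mixed pairs 0.03.

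The closest pair was Snora20 with Snord47 (r = 0.85 over 15 mice, 0.86 within Sfrp5 KO and 0.91 within wild type mice), from different chromosomes and hosts. It was followed by Snora62 with Snora69 (0.83), Snora74a with Snord15b (0.80), Snora3 with Snord87 (0.80) and Snora31 with Snora33 (0.79). With the genotype means removed, Snord47 also had the highest r with the mean of the other members, 0.81. The lowest by that measure were Snord15a (-0.45), Snord118 (-0.43) and Snord15b (-0.39). In single pairs, without that removal, Snord15a had an r of -0.76 with Snora33, -0.75 with Snora31 and -0.74 with Snord35a. These are the extremes of 1275 pairs and share the same 15 arrays.

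Sharing a host gene did not go with sharing a profile in every case. The 10 pairs from 1 host had a median r of 0.06, the same as all pairs. Snora75 and Snord82, an H/ACA and a C/D gene of Ncl, had r = 0.67, and Snord42a and Snord42b of Rpl23a had 0.55. The pair from Rps3a1, Snord73a and Snord73b, had 0.00 after rounding, and Snora73a with Snora73b had -0.31.

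The mean over all members differed between single mice more than between genotypes. It was 6.81, 7.09, 7.04, 7.03, 6.89, 6.81, 6.88 and 6.97 in Sfrp5 KO replicates 1 to 8, against 7.12, 6.93, 6.92, 6.88, 6.92, 6.95 and 6.93 in wild type replicates 1 to 7. The highest mean belonged to a wild type mouse and the lowest to Sfrp5 KO mice, and the ranges overlapped widely. In wild type replicate 1, 36 of 51 members lay above their own median and 8 had their highest value of all mice, while array medians over all probe sets stayed between 6.99 and 7.07. Sfrp5 KO mice lay on both sides, with 35 and 32 members above their median in replicates 2 and 3, and 13 and 14 in replicates 1 and 6. Of these, Sfrp5 KO replicate 2 is the array with the highest mean of epididymis markers, 10.58.

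snoRNAs and hosts were compared where a probe set with a single symbol measured a gene whose span holds the snoRNA. For Snord8 and Snord87 the shortest span (Gm26590 and Snhg6) was not measured, and the longer Chd8 and Mcmdc2 stood in. In 29 pairs of a snoRNA and a measured host (25 hosts) the snoRNA had the larger SD in all 29, with a median of 0.267 against 0.0902 for the host. Levels were not matched in that comparison: the host probe set was the brighter in 28 of 29 pairs, with a median level of 11.35 for hosts and 7.08 for snoRNAs, and SD falls with level on these arrays. The median r of a snoRNA with its host over 15 mice was 0.23, between -0.64 and 0.65, and 20 of 29 were positive. The signs of the genotype difference matched in 18 of 29 pairs, and host differences ran from -0.14 to 0.28. The -0.14 belongs to the stand-in Mcmdc2, and the next lowest was Rplp2 at -0.08.

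At an unadjusted permutation p under 0.05 there were 4 of the 29 pairs by Pearson r and 4 by Spearman rho, with 3 pairs in both, and 0 of 29 passed after Benjamini-Hochberg adjustment over the pairs (smallest adjusted p = 0.161 for r and 0.179 for rho, permutation test). Snora31 with Tpt1, a gene for an abundant growth-related protein, had r = 0.61 (permutation p = 0.0173) and rho = 0.58 (permutation p = 0.0275). That r was 0.74 within Sfrp5 KO and 0.40 within wild type mice, and 0.61 without the 2 mice farthest from the host's median. Snord82 with Ncl had r = 0.58 (permutation p = 0.0226) and rho = 0.61 (permutation p = 0.0168), with 0.86 within Sfrp5 KO and 0.21 within wild type mice, and 0.57 without the 2 farthest mice. Snord16a ran against its host Rpl4, with r = -0.64 (permutation p = 0.00823), rho = -0.60 (permutation p = 0.0185), -0.74 within Sfrp5 KO and -0.64 within wild type mice, and -0.68 without the 2 farthest mice. Snord15b with Rps3 had r = 0.65 (permutation p = 0.0111) but rho = 0.34 (permutation p = 0.218). Its r was 0.88 within Sfrp5 KO and 0.55 within wild type mice, and 0.29 without the 2 farthest mice, so over 15 mice it rests on those mice. Snora30 with Srcap, a chromatin remodeller gene, had the lowest p by rank, with rho = 0.66 (permutation p = 0.00828) beside r = 0.26 (permutation p = 0.337). Its r was 0.35 within Sfrp5 KO and 0.26 within wild type mice, and 0.46 without the 2 farthest mice.

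**Figure D5:**
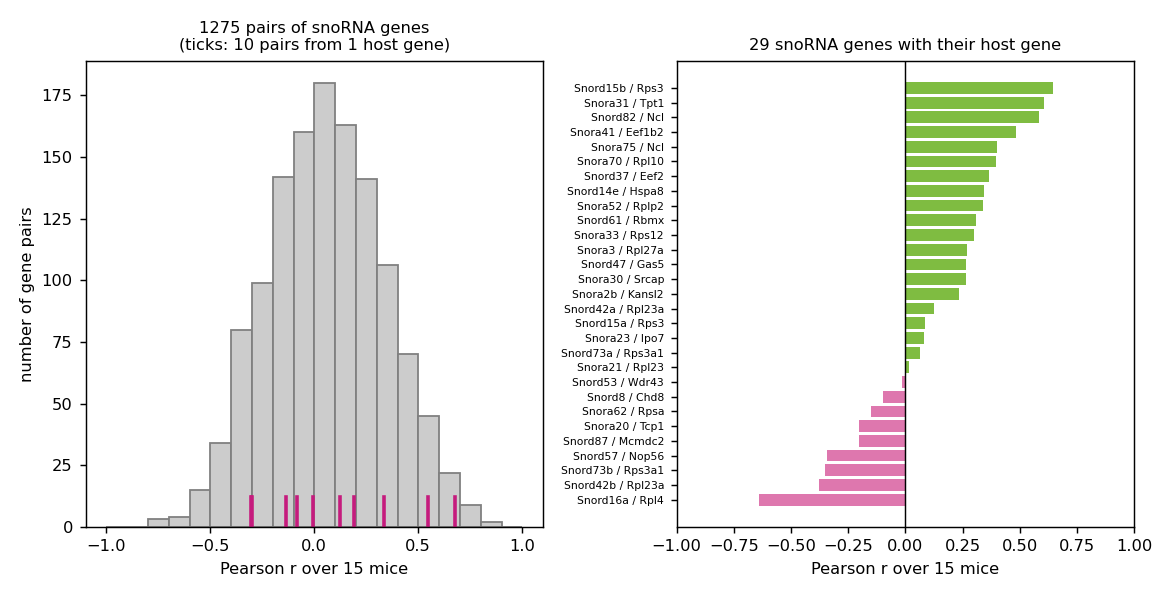
The left panel is a histogram of Pearson r over 15 mice for the 1275 pairs of snoRNA genes, with ticks for the 10 pairs from 1 host gene, and the right panel gives r over 15 mice for 29 snoRNA genes with their host genes, green above 0 and pink below. The histogram is centred near its median of 0.06 with the ticks spread across it, and host pairs run from 0.65 for Snord15b to -0.64 for Snord16a.

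The proteins that carry snoRNAs gave no call either. All 4 core proteins of the H/ACA complexes, the pseudouridine synthase dyskerin (Dkc1), Nop10, Nhp2 and Gar1, were higher in Sfrp5 KO mice by 0.02 to 0.11, with no limma adjusted p under 0.661. Of the 4 C/D core genes, Fbl (fibrillarin, the methyltransferase) differed by 0.14 (SE 0.09, limma adjusted p = 0.670), and Nop56, Nop58 and Snu13 by -0.06 to 0.05. The H/ACA assembly factors Naf1 and Shq1 were both lower, with a list median of -0.08.

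Among 10 genes for assembly and maturation of C/D complexes 9 were lower and 1 higher in Sfrp5 KO mice, 0 of them called and 2 at an unadjusted p under 0.05. Over all probe sets 47.5% were higher and 9.97% had such a p. Nolc1, which chaperones snoRNA complexes between nucleolus and Cajal bodies, was 8.77, 8.86 and 9.08 at the lowest, median and highest in Sfrp5 KO mice, against 8.98, 9.06 and 9.15 in wild type mice. The ranges overlapped, with 1 of 8 Sfrp5 KO mice above the wild type mean (log2 difference -0.16, SE 0.06, limma adjusted p = 0.353). Nolc1 lies on chromosome 19, where Sfrp5 also lies, and the part of that location was not tested. Ruvbl2, an ATPase of the assembly machinery, had all 8 Sfrp5 KO mice above the wild type mean, with 8.18 to 8.41 against 7.95 to 8.38 in wild type mice (0.14, SE 0.06, limma adjusted p = 0.460). The other 8 genes (Nufip1, Znhit3, Znhit6, Ruvbl1, Pih1d1, Rpap3, Tgs1 and Coil) lay between -0.15 and 0.00 after rounding.

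Further lists around the snoRNAs held genes of both signs. Of 6 processome genes 2 were higher and 4 lower, of 5 genes for intron processing and decay 2 and 3, of 6 non-coding hosts (Gas5 and Snhg genes) 3 and 3, and of 11 genes of RNA polymerase I transcription 5 and 6. None of these was called, and none had an unadjusted p under 0.05. Other small RNAs counted 7 higher and 8 lower of 15, with 0 called. At an unadjusted limma p under 0.05 there was 1 of them, Rnu7, beside 9.97% of all probe sets. Rnu7, the RNA that guides histone mRNA processing, differed by 0.35 (SE 0.16, limma adjusted p = 0.495). Its signal was 5.47, 5.91 and 6.31 at the lowest, median and highest in Sfrp5 KO mice, against 5.04, 5.71 and 6.14 in wild type mice. Rnu3a, the U3 box C/D RNA of the processome, differed by -0.38 (SE 0.23, limma adjusted p = 0.646), at 7.21, 7.85 and 8.50 in Sfrp5 KO mice, against 7.45, 8.19 and 8.73 in wild type mice. Both ranges overlapped over most of their length. The remaining 13 (Rnu12, Rnu5g, Rnu6, Scarna13, Scarna17, Scarna8, Rn7sk, Rmrp, Rpph1, Terc, Vaultrc5, Rny1 and Rny3) lay between -0.21 and 0.16.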

How the data were processed

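Total RNA (10 ng each) from 15 mice was amplified and hybridised to Affymetrix arrays. The deposited values are log2 signals made by the authors; the submitters' processing notes name RMA, Affymetrix Expression Console (version 1.1.2800.19935), affy 1.18 and limma, without their roles. The genome build of the probe design was not given in the sources used here. From these values a limma fit (3.58.1 in R 4.3.3; lmFit, eBayes, no covariates) compared 8 Sfrp5 KO with 7 wild type arrays over all 35557 probe sets, with Benjamini-Hochberg adjustment and a threshold of 0.05, two-sided. The fit was tested on simulated data. Of the probe sets, 21789 carry 1 symbol, 1621 several and 12147 none. Exact permutation tests, correlations (100000 resamples for hosts) and figures used Python 3.11.15, numpy 2.4.6, scipy 1.17.1, pandas 2.3.3 and matplotlib 3.10.9.

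All 51 members matched RefSeq (GRCm38.p6), which gave spans, hosts and promoters. A host is the shortest gene span holding the snoRNA, without regard to strand, since that of the snoRNAs was not in the tables used. Named genes were the 10 members with the lowest p on each side, the 3 brightest and dimmest per class, the 5 most variable, members on chromosome 19 or hosted by Rpl13a, the closest pairs and the measured snoRNA protein and small RNA lists. Members, lists and tests were chosen with earlier results of these data known. Alternatives changed the normalization, dim-probe filter, variance model, array weights, probe set choice, replicate block, arrays and adjustment. Labels name the arrays biological replicates and give no batch. Sample descriptions carry a number whose meaning is not given. It runs from 625 to 631 in Sfrp5 KO replicates 1 to 6 and from 640 to 660 in wild type mice. For Sfrp5 KO replicates 7 and 8 it is 648 and 649, within the wild type run. The host of 1 member is not reported here.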

Additional observations from a re-analysis of the deposited data

Results flagged for a closer look

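In 8 of 106 tests within a genotype the highest or lowest mouse stood apart from the rest by Dixon's criterion, where chance gives about 5%. The tests covered 53 sets of values, more than the 51 members, and all 8 that stood apart were members. Among Sfrp5 KO mice, replicate 2 was high in Snora44 (9.03, others 8.39 to 8.65), replicate 1 was high in Snord15a (6.47, others 5.98 to 6.20) and replicate 7 was low in Snord61 (4.27, others 5.82 to 7.09). Among wild type mice, replicate 1 was high in 3 genes: Snord14e (10.2, others 9.23 to 9.50), Snord49b (9.03, others 7.89 to 8.32) and Snord53 (7.93, others 7.06 to 7.40). Wild type replicate 5 was high in Snora30 (9.86, others 8.67 to 9.13), and replicate 3 was low in Snora41 (5.72, others 6.28 to 6.52).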

How the results depend on the processing

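The count of 0 called snoRNA genes held in all 26 alternatives. The count at an unadjusted p under 0.05 was 3 and ran between 2 and 5, with 5 without wild type replicate 1, without Sfrp5 KO replicate 1, and with Sfrp5 KO replicates 7 and 8 as the only KO arrays. The member median stayed between -0.05 and 0.03, and the median pairwise r between 0.05 and 0.07. The count of all probe sets called was unstable. It was 12 as deposited, 6 after quantile normalization, 7 after median centring, 26 without dim probe sets, 48 with an intensity trend and robust prior, 25 with array weights, 0 with a replicate block, 2 without Sfrp5 KO replicates 7 and 8, 0 with these alone, 0 without the arrays high in epididymis markers (Sfrp5 KO replicate 2, wild type replicate 4), and 1 when adjusted over probe sets with 1 symbol. Leaving out single arrays gave 0 to 133, the highest without Sfrp5 KO replicate 1. Same-numbered mice of both genotypes had correlations of deviations between -0.12 and 0.25, so the numbers were not taken as pairs. The replicate block left 0 members called and 2 at an unadjusted p under 0.05.

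Only a part of the named genes was followed over the alternatives, 26 members among them, and Snora2b, Snord61 and Snora20 were not. Among the genes followed, signs turned only for those with a limma adjusted p of 0.554 or more. Without Sfrp5 KO replicates 7 and 8 Snord35b was -0.066. With these alone Snord49a was -0.11, Snord85 0.028, Snord33 0.12, Snord96a 0.056, Snord73a -0.26, Snord118 0.078, Snord14e -0.090 and Nop56 0.055. Without the arrays high in epididymis markers Snord35b was -0.0098 and Snora73a 0.013. Over single arrays left out, Snord35b ran from -0.050 to 0.13, Snord73a from -0.028 to 0.15 and Snora73a from -0.060 to 0.014. Without 1 array, 19 of the 26 member differences followed moved by more than 1.5 times, and none was called. The cause was not tested. Signal over background was not used here, so the dimmest members may lie near it.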

Other observations

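The 5 genes with a single symbol, outside the members, whose residuals from the genotype means were closest to the mean residual of the snoRNA genes were Nudc (r = 0.86 over 15 mice), Pnn (0.86), Usp10 (0.84), 1700088E04Rik (0.84) and Cep44 (0.83). They are the extremes over all such genes, and the r is given as a description.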
